A study of Rattus norvegicus with 18 samples.

Results

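The transcripts described here were listed at exactly 0 in the abdominal aorta of all 6 spontaneously hypertensive rats (SHR) and above 0 in all 6 normotensive Wistar Kyoto rats (WKY). The WKY and SHR values themselves chose them. Of 3659 transcripts listed for the 2 strains, 66 (1.8%) met both conditions. Leaving out 8 that belong to the assembled loci MERGE.19062 and MERGE.16214 gave the 58 members: 7 with Ensembl identifiers (ENSRNOT numbers) and 51 from a merged transcript assembly, in which they fall into 46 loci. A locus is here the first number of a MERGE identifier, and the second number is the transcript.

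The study profiled RNA of 18 rats, depleted of ribosomal RNA, in 3 groups of 6. WKY rats carried the WKY genotype and received double distilled water by gavage for 10 weeks. SHR carried the SHR genotype and received the same water. The SHR+ETH group were SHR given ETH, the ethoxysanguinarine of the study's title and a plant alkaloid, at 3.5 mg/kg per day for the same 10 weeks. The labels of its samples name water as well as ETH as treatment. Random allocation split the 12 SHR evenly between these arms, and each library is 1 animal. The sources used here give neither age nor sex. WKY is the usual control of SHR, but the 2 are separate inbred strains. Strain background and blood pressure therefore cannot be told apart in this comparison. Libraries are named by their group and by the number in their label.

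SHR develops high blood pressure without treatment and is a standard model of inherited hypertension, in which the wall of large arteries thickens and stiffens. The abdominal aorta is mostly smooth muscle, with an endothelial lining, fibroblasts and surrounding fat. Most genes give several transcripts, through different start sites, splicing and ends of the RNA. Transcripts of a locus often share exons, and quantification programs then divide the shared reads among them. A transcript can thus be listed at 0 while its locus is transcribed. For this reason the other listed transcripts of the same loci, called locus mates below, are described beside the members.

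The files name no unit and the depth behind the values is unknown. A value of 0 is therefore reported as listed at 0 and is not shown to mean that the transcript was absent. The sources used here do not say whether values were divided by transcript length. Orders of transcripts by level, and sums over transcripts, are orders and sums of the deposited values. None of the 58 members could be paired with a gene by the gene table used here, which held no Ensembl transcript numbers. Markers of aortic cell types could not be read for the same reason, so the labelled tissue was not checked. In bulk tissue, fewer cells of a type and less RNA per cell cannot be told apart. Values of the listed transcripts summed to between 30307 and 50521 per WKY library, 23696 and 50052 per SHR library, and 7046 and 10220 over the different list of SHR+ETH.

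Most members had a WKY median under 10. Their WKY median was at least 1 in 46 of 58 (79.3%) and at least 10 in 5, and the median of these medians was 2.22 (interquartile range 1.08 to 3.66). Among the 2082 listed transcripts that were above 0 in all 6 WKY libraries, 62.2% had a WKY median of at least 1 and the median was 1.42. These shares describe a set that was chosen on the same values and were not tested. In 20 members every WKY library held a value of at least 1, and in 49 every library held at least 0.1. Together the members summed to 296 ± 89.0 per WKY library (SD, n = 6), with 187 in WKY 3 as the lowest and 445 in WKY 1 as the highest. That was 0.410% to 1.32% of the listed signal of a WKY library.

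**Figure D1:**
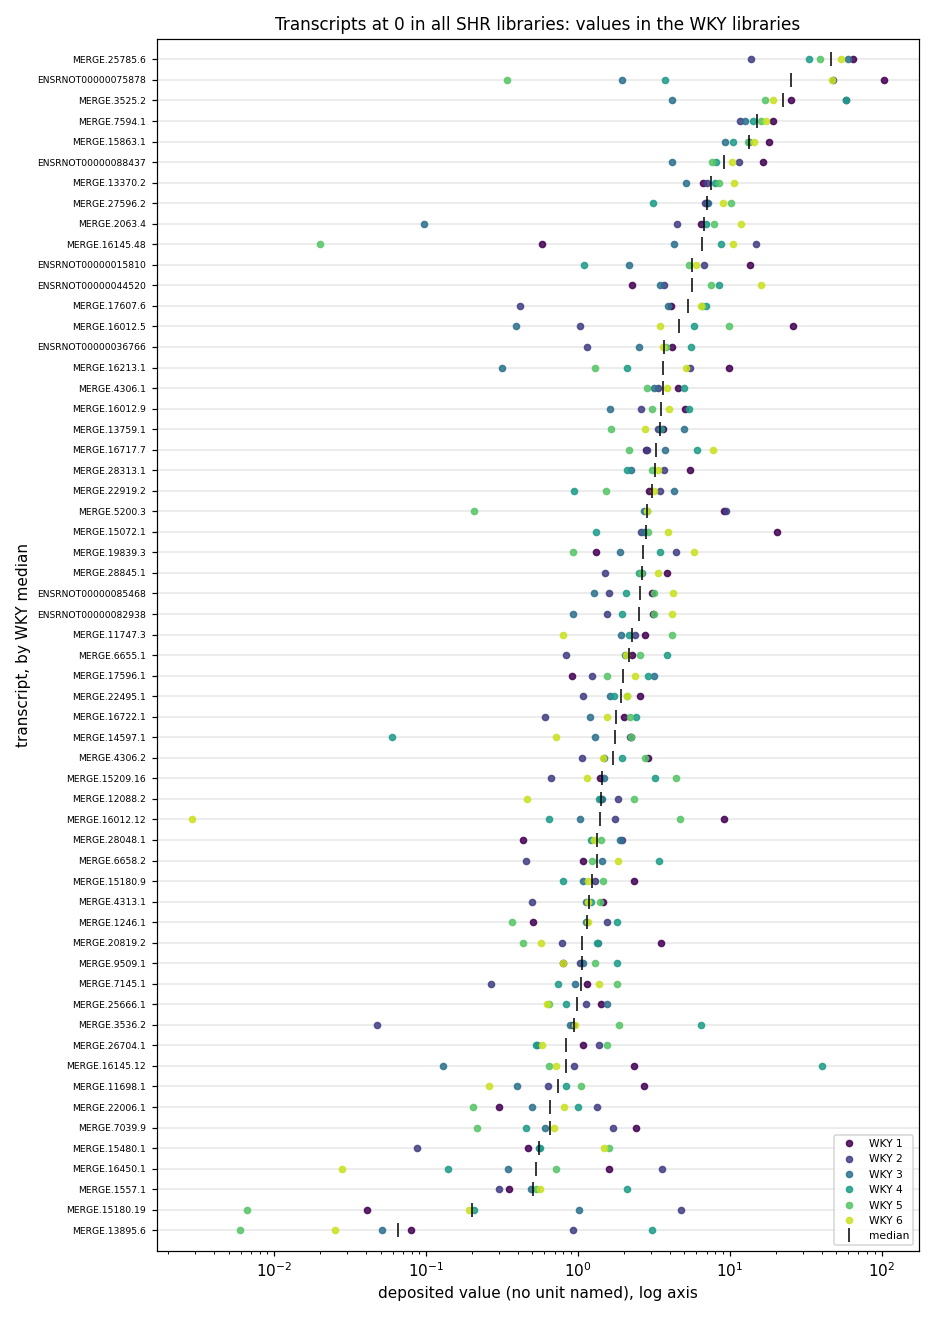
Value of each of the 58 members in the 6 WKY libraries (points, logarithmic axis, deposited values without a named unit), ordered by median (vertical bars). All SHR values are 0 and have no place on a logarithmic axis. Medians run from 46.4 for MERGE.25785.6 down to 0.0652 for MERGE.13895.6, and 9 members vary over 100-fold between libraries.

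The member with the highest WKY median was MERGE.25785.6, at 13.8 in WKY 2 (lowest), 46.4 (median) and 64.8 in WKY 1 (highest). MERGE.3525.2 ran from 4.18 in WKY 3 over a median of 22.2 to 57.9 in WKY 2. The lowest animal thus differed between the 2. Steadier levels were found in MERGE.7594.1, with 11.7, 15.03 and 19.3 as lowest, median and highest value, and in MERGE.15863.1, with 9.29, 13.3 and 18.1. MERGE.4306.1 was as steady at a lower level, with 2.85, 3.59 and 5.0004. In MERGE.7594.1 the highest WKY value was 1.65-fold the lowest, the smallest ratio among the members.

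Other assembled members followed at intermediate values. MERGE.13370.2 lay between 5.12 and 10.7 (median 7.52) and MERGE.27596.2 between 3.11 and 10.1 (median 7.10). MERGE.17607.6 held 6.90 in WKY 4 and 0.411 in WKY 2, with a median of 5.27. MERGE.16213.1 ranged from 0.314 in WKY 3 to 9.83 in WKY 1, with a median of 3.59. In the last 2 of these the lowest animal was over 10-fold below the highest, as in 20 of the 58 members.

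Of the 7 Ensembl members, ENSRNOT00000075878 had the highest median, 25.3, and also the widest spread. It stood at 103 in WKY 1, 47.5 in WKY 2 and 46.9 in WKY 6, but at 3.75 in WKY 4, 1.93 in WKY 3 and 0.338 in WKY 5. The WKY animals thus fell into 3 high and 3 low values for this transcript. ENSRNOT00000088437 was steadier, with 4.13, 9.12 and 16.5 as lowest, median and highest value. ENSRNOT00000015810 ran from 1.10 to 13.5 (median 5.63) and ENSRNOT00000044520 from 2.27 to 15.9 (median 5.58). Their highest values came from different animals, WKY 1 and WKY 6. ENSRNOT00000036766 lay between 1.15 and 5.54 (median 3.69).

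ENSRNOT00000085468 and ENSRNOT00000082938 had the same lowest and highest animal. The first stood at 1.26, 2.57 and 4.19 (lowest, median, highest) and the second at 0.931, 2.52 and 4.16, with WKY 3 lowest and WKY 6 highest. The ratio of the second to the first lay between 0.737 in WKY 3 and 1.01 over the 6 libraries. Among the 1653 pairs of members, 8 had a ratio that varied at most 1.5-fold over the WKY libraries. In 3 of these 8 pairs the values of ENSRNOT00000036766, MERGE.16722.1 and MERGE.6655.1 were paired among themselves. The 8 pairs were picked from all pairs for this closeness and share the same 6 libraries, so they are given as a description.

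At the other end, some members were present in every WKY library by a small margin. The lowest value of MERGE.16012.12 was 0.00285 in WKY 6, while WKY 1 held 9.12. MERGE.13895.6 stood at 0.00591 in WKY 5 and 3.05 in WKY 4, and MERGE.15180.19 at 0.00657 in WKY 5 and 4.75 in WKY 2. MERGE.16145.48 was 0.0199 in WKY 5 and 14.8 in WKY 2, and MERGE.16450.1 was 0.0278 in WKY 6 and 3.55 in WKY 2. Membership of these 5 rests on a value close to 0 in at least 1 animal. The coefficient of variation over WKY animals ranged from 19.1% to 214% among the members, with a median of 51.3%. The median was 51.9% over all listed transcripts above 0 in all WKY libraries. The highest value of a member came from WKY 1 in 20 cases and from WKY 4 in 13, against 4 to 7 in the other 4 libraries.

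Transcripts just outside the rule included some with high values. In all, 150 transcripts outside the 2 excluded loci were at 0 in all 6 SHR libraries: besides the 58 members, 23 were above 0 in 5 WKY libraries, 36 in 4 and 33 in 3. None was above 0 in fewer than 3. ENSRNOT00000091389 was at 0 in WKY 1 and between 26.4 and 99.97 in the other 5 WKY libraries. MERGE.14350.1 was at 0 in WKY 6 and 0.136 in WKY 1, and between 47.6 and 68.6 in the other 4. MERGE.15382.3 was at 0 in WKY 1 and otherwise between 12.8 and 26.9. On the side of SHR, 42 transcripts were above 0 in all WKY libraries and in 1 SHR library. ENSRNOT00000079520 held 7.12 to 20.4 in WKY and 1.83 in SHR 48 alone. The other 2 of these with the highest medians, MERGE.22919.1 and MERGE.3525.3, are locus mates of members and are described with their loci.

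The opposite set, transcripts at 0 in all WKY and above 0 in all SHR libraries, had 75 transcripts (2.05% of the list), of which 74 lay outside the 2 excluded loci (10 Ensembl and 64 assembled). Their SHR medians had a median of 1.07, and 40 of the 74 reached 1 and 4 reached 10. No test was made between the sets, since both were chosen on these values. Transcripts of both sets occurred together in 2 loci, MERGE.2063 and MERGE.16145.

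The locus mates ask whether other transcripts of a member's locus were also low in SHR. A transcript that met the rule counted as a member, so no mate could show the pattern of the members. Transcripts with the opposite pattern stayed among the mates. The rule thus limits what the mates can show, and the transcripts of a locus can also share reads. The 51 assembled members fell into 20 loci with at least 1 locus mate on the list (25 members) and 26 loci without (26 members). The 20 loci held 68 mates, 30 of them in MERGE.16145. Of the member loci 43.5% had 2 or more listed transcripts, compared with 15.3% of the 2169 assembled loci on the list. A locus with more listed transcripts has more chances to hold a member, so this difference was given no test. No mates could be assigned to the 7 Ensembl members.

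The strain difference was tested with limma on log2(value + 1) over the 1585 transcripts that reached 1 in 6 or more of the 12 libraries. At an adjusted p under 0.05, 82.5% of the 1585 were called, 44.4% as higher in SHR and 38.1% as lower. That share describes a list that may have been chosen for strain differences in these libraries, in which case the adjusted p-values are too small. Of the 68 mates 28 could be tested, and all 28 were called: 13 were higher in SHR and 15 lower. Mates were thus called in both directions. The balance between these was shaped by the rule, which took the members out of the lower side, and was not tested. Of the 28, 6 passed the filter through 1 strain alone, being at 1 or above in all its 6 libraries and in none of the other strain, so that they had to differ. The other 22 held 10 called higher and 12 called lower. Some of them were nearly as one-sided, at 1 or above in all 6 libraries of 1 strain and in 1 or 2 of the other. These were MERGE.16012.2, MERGE.16145.16, MERGE.16145.44 and MERGE.16145.74 for WKY. For SHR they were MERGE.16145.40, MERGE.16145.53, MERGE.25785.7 and MERGE.28313.3. MERGE.16145.1 and MERGE.16145.83 were close to this, at 1 or above in 5 SHR libraries and in 1 and 2 WKY libraries. MERGE.16450.4 was at 1 or above in 5 WKY libraries and 1 SHR library. The filter favoured a strain difference in these as well, which limits their p-values. Among these 22 the strains did not overlap in 10 mates (45.5%), 3 higher in SHR and 7 lower, against 16.4% of the tested transcripts that did not pass through 1 strain alone. Most of the 10 belong to MERGE.16145, and the rest to MERGE.16012, MERGE.13370 and MERGE.3525. Mates of a locus are not independent, so the 2 shares were not tested against each other. With those that did, the share was 24.3% of the tested list, and it was 19.7% of all listed transcripts. The median log2 fold change was -0.91 over the 28 mates, -1.001 without 1 mate that was at 0 in all WKY libraries, and 0.63 over all tested transcripts. Scaling each library to the same listed sum moved the fold changes of all tested transcripts by a median of 0.19. It gave 781 calls higher and 362 lower over the list (704 and 604 as deposited), and 13 and 12 among the mates. Without SHR 3 or SHR 41 the mates called higher numbered 8, and without WKY 3 those called lower numbered 9.

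**Figure D2:**
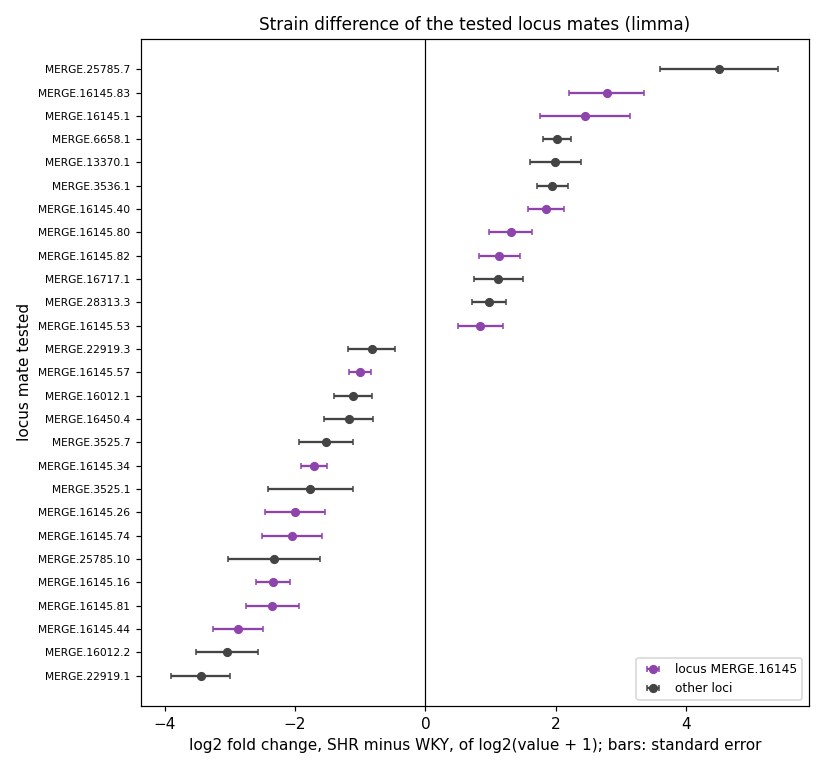
Log2 fold change (SHR minus WKY, on the log2(value + 1) scale) with its standard error for 27 of the 28 tested locus mates, from limma. MERGE.16145.43, at 0 in all WKY libraries, is left out. Values run from -3.45 for MERGE.22919.1 to 4.50 for MERGE.25785.7, and both directions occur within the locus MERGE.16145 and outside it. MERGE.22919.1, MERGE.16145.34, MERGE.16145.57, MERGE.3536.1 and MERGE.6658.1 passed the filter through 1 strain alone and had to differ.

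In 6 loci outside MERGE.16145 a mate was higher in SHR while the member was at 0 there. In MERGE.25785, the locus of the highest member, the mate MERGE.25785.7 stood at 30.6, 42.2 and 75.1 (lowest, median, highest) in SHR. In WKY it was at 0 in 5 libraries and 70.8 in WKY 6, so the strains overlapped through that 1 animal (log2 fold change 4.50, SE 0.91, limma adjusted p = 0.00122). A second mate, MERGE.25785.10, went the other way, from 13.2, 26.9 and 58.8 in WKY to 0.0167, 4.87 and 21.3 in SHR (-2.32, SE 0.71, adjusted p = 0.0131). The 2 mates summed to between 13.2 and 86.7 in WKY and between 35.2 and 79.6 in SHR, so the sum overlapped between strains.

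MERGE.13370 had 2 listed transcripts, the member and 1 mate that was higher in SHR. The member MERGE.13370.2 made up 52.9% to 85.7% of the locus in WKY. Its mate MERGE.13370.1 stood at 0.855, 4.24 and 7.53 in WKY and at 12.1, 15.6 and 24.8 in SHR, without overlap (log2 fold change 1.99, SE 0.39, limma adjusted p = 9.70e-04). The listed sum of the locus, member included, was 11.7 ± 3.64 in WKY and 17.4 ± 5.64 in SHR (SD, n = 6). This sum ran from 5.97 to 16.0 in WKY and from 12.1 to 24.8 in SHR, so the strains overlapped. The rule fixed the member's part in SHR at 0, so the sum is a description.

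In MERGE.6658 the mate MERGE.6658.1 was at most 0.677 in WKY and at least 3.46 in SHR (limma log2 fold change 2.01, SE 0.22). In MERGE.3536 the mate MERGE.3536.1 was at most 0.317 in WKY and at least 1.83 in SHR (1.94, SE 0.24). The 2 members, MERGE.6658.2 and MERGE.3536.2, had WKY medians of 1.33 and 0.936. Neither mate overlapped between strains, but both passed the filter through SHR alone and had to differ, so their p is not given. MERGE.16717.1 rose from a median of 1.53 to 5.35 (1.12, SE 0.37, adjusted p = 0.0186) and MERGE.28313.3 from 0.885 to 3.37 (0.97, SE 0.26, adjusted p = 0.00679), each with overlap between strains. Their members MERGE.16717.7 and MERGE.28313.1 had WKY medians of 3.27 and 3.21.

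In another 2 loci outside MERGE.16145 a mate below the filter had all its SHR values above its WKY values. MERGE.2063.2 was at 0 in all WKY libraries, where the member MERGE.2063.4 stood at 0.0967, 6.69 and 11.8 (lowest, median, highest). In SHR the mate held 9.46, 8.97 and 5.22 in SHR 3, 48 and 40, and at most 0.0817 in the other 3 animals. Each strain thus listed a different transcript of MERGE.2063. MERGE.17607.1 was at most 0.00613 in WKY and ran from 0.147 to 0.486 in 5 SHR libraries, with 5.77 in SHR 40.

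**Figure D3:**
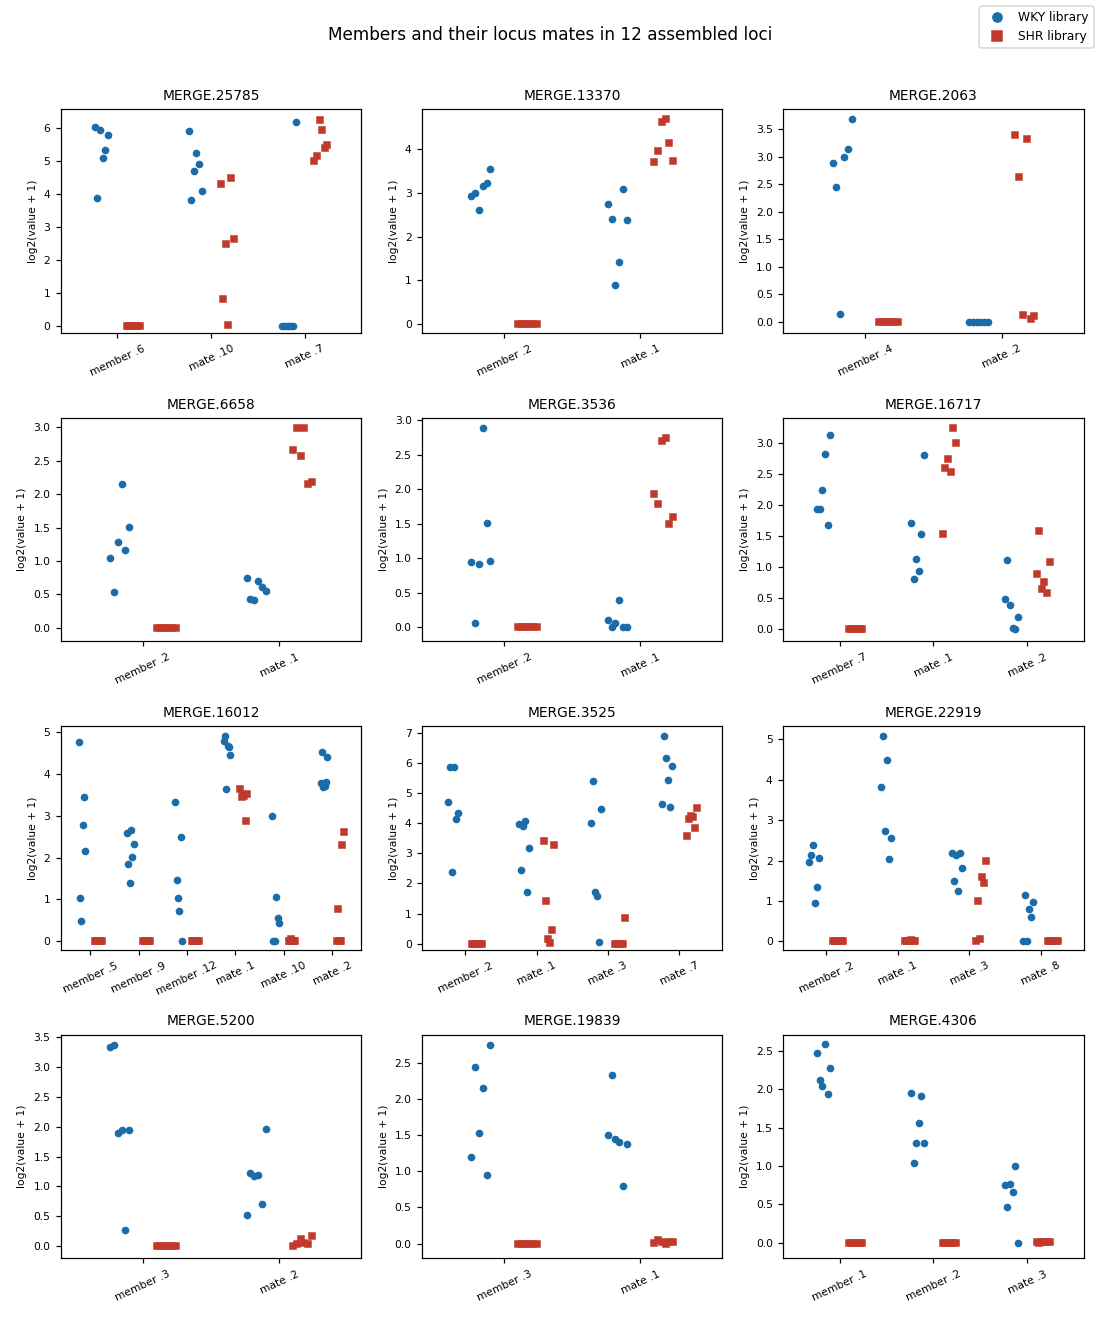
Values of members and locus mates on the log2(value + 1) scale in 12 assembled loci, 1 point per library (circles WKY, squares SHR, 6 each). In MERGE.13370, MERGE.6658 and MERGE.3536 a mate is higher in SHR without overlap, and in MERGE.5200 and MERGE.19839 the mate is lower without overlap.

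In 5 loci outside MERGE.16145 mates were called lower in SHR, where the rule had set the members at 0 and they were not tested. MERGE.25785, described above, is 1 of these and also held a mate called higher. MERGE.16012 held 3 members and 3 mates. MERGE.16012.5 stood at 0.390, 4.64 and 26.0 (lowest, median, highest) in WKY, MERGE.16012.9 at 1.63, 3.52 and 5.35, and MERGE.16012.12 at 0.00285, 1.39 and 9.12. WKY 1 held the highest value in the first and the third of these. MERGE.16012.1 fell from 11.48, 24.2 and 28.8 in WKY to 6.32, 10.2 and 11.4 (log2 fold change -1.11 in limma, SE 0.30, adjusted p = 0.00707). This call was lost when libraries were scaled to the same listed sum (-0.83, adjusted p = 0.0575). MERGE.16012.2 fell from 11.9, 12.9 and 21.9 to 0, 0.349 and 5.13 (-3.04, SE 0.48, adjusted p = 1.56e-04). In both the lowest WKY value lay above the highest SHR value, and MERGE.16012.1 remained at 6.32 or more in every SHR animal.

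In MERGE.3525, MERGE.3525.7 fell from 22.5, 51.2 and 118 in WKY to 10.9, 17.1 and 21.9 in SHR, without overlap (log2 fold change -1.52, SE 0.41, limma adjusted p = 0.00775). MERGE.3525.1 ran from 2.30 to 16.0 in WKY and from 0.00505 to 9.66 in SHR (-1.76, SE 0.65, adjusted p = 0.0271). Its call was lost without WKY 1, 3 or 4 or SHR 41, 48 or 59 (adjusted p from 0.0505 to 0.0592). MERGE.3525.3 could not be tested, with WKY values from 0.0362 to 41.3 and only SHR 60, at 0.790, above 0 in SHR. The locus thus kept listed signal in every SHR animal, most of it from MERGE.3525.7.

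In MERGE.22919 the mate MERGE.22919.1 stood at 3.11, 9.33 and 32.6 in WKY, where its member MERGE.22919.2 stood at 0.941, 3.04 and 4.27. In SHR it was at 0 in 5 libraries and 0.0217 in SHR 48. It passed the filter through WKY alone and had to differ, so its p is not given. The fitted log2 fold change of -3.45 (SE 0.45) depends on the pseudocount. MERGE.22919.3 fell less, from a median of 2.96 to 1.37 with overlap (-0.83, SE 0.36, adjusted p = 0.0455), and MERGE.22919.8 was at 0 in all SHR and in 2 WKY libraries. In MERGE.16450 the mate MERGE.16450.4 fell from a median of 2.64 to 0.191 (-1.18, SE 0.37, adjusted p = 0.0153), with SHR 41 at 3.10 inside the WKY range.

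Several loci had little or no listed signal left in SHR, with mates below the filter for testing. MERGE.11747 was the only 1 of the 20 loci in which every listed transcript was at 0 in all SHR libraries. Its member MERGE.11747.3 stood at 0.789 to 4.17 in WKY, and its mate MERGE.11747.2 reached 21.5 in WKY 1 but was at 0 in WKY 4. MERGE.4306 held the members MERGE.4306.1 and MERGE.4306.2 (1.06, 1.71 and 2.87 in WKY) and the mate MERGE.4306.3. The mate was at most 1.01 in WKY and between 0.00242 and 0.00298 in 5 SHR libraries. The locus as a whole fell from a listed sum of 6.28 ± 1.35 in WKY to at most 0.00298 in any SHR library. Since 2 of its 3 transcripts were chosen for being at 0, that sum is a description. MERGE.5200.2 ran from 0.435 to 2.91 in WKY and reached 0.128 in SHR, and MERGE.19839.1 ran from 0.736 to 4.04 and reached 0.0396. The last 2 mates did not overlap between strains.

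The locus MERGE.16145 held 2 members and 30 mates, the largest number of mates in any of these loci. Its members differed in their variation. MERGE.16145.48 stood at 0.0199, 6.50 and 14.8 in WKY (lowest, median, highest). MERGE.16145.12 lay between 0.129 and 2.35 in 5 WKY libraries and reached 40.04 in WKY 4. Among the mates the SHR median was higher than the WKY median in 19 and lower in 11. Of 14 mates tested, 7 were called higher in SHR and 7 lower. The mates summed to 122, 162 and 188 (lowest, median, highest) in WKY and to 129, 187 and 207 in SHR. The sum thus overlapped between strains, while the transcripts that made it up differed.

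Among the lower mates of MERGE.16145, MERGE.16145.81 had the highest WKY values. It fell from 34.3, 56.7 and 74.3 to 2.88, 10.8 and 21.8 (log2 fold change -2.34, SE 0.40, limma adjusted p = 3.18e-04). MERGE.16145.44 fell from 5.83 or more in WKY to 0 in 5 SHR libraries and 3.41 in SHR 59 (-2.87, SE 0.39, adjusted p = 3.41e-05). MERGE.16145.16 fell from a median of 5.33 to 0 (-2.34, SE 0.26, adjusted p = 4.58e-06). MERGE.16145.26, MERGE.16145.34, MERGE.16145.57 and MERGE.16145.74 were also lower, with log2 fold changes from -2.05 to -1.001. Of these, MERGE.16145.34 and MERGE.16145.57 passed the filter through WKY alone and had to differ. Of the 7 lower mates, MERGE.16145.26 alone overlapped between strains, with 2.71 to 18.5 in WKY and 0.435 to 2.93 in SHR.

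Among the higher mates, MERGE.16145.80 rose from 10.8, 17.6 and 35.0 in WKY to 38.1, 45.7 and 57.6 in SHR (limma log2 fold change 1.31, SE 0.33, adjusted p = 0.00546). MERGE.16145.43 was at 0 in all WKY libraries and between 3.79 and 16.7 in SHR, so no fold is given. It passed the filter through SHR alone, and its p is not given either. MERGE.16145.83 rose from a median of 0.535 to 19.0 (2.78, SE 0.58, adjusted p = 0.00150), with SHR 60 at 0.845 inside the WKY range. MERGE.16145.82 rose from a median of 13.9 to 35.1 (1.14, SE 0.32, adjusted p = 0.00916) and MERGE.16145.40 from 0.799 to 6.09 (1.85, SE 0.27, adjusted p = 7.77e-05). MERGE.16145.1 was at 0 in all WKY libraries but WKY 4 (3.06), and in SHR it reached 28.9 in SHR 3 and 33.0 in SHR 48 with at most 3.33 in the other 4 (2.45, SE 0.69, adjusted p = 0.00918). MERGE.16145.53 rose from a median of 0.360 to 1.73 (0.84, SE 0.34, adjusted p = 0.0369). It lost its call under quantile normalization (adjusted p = 0.0642) and without any 1 of WKY 1, 3, 4, 5 or 6 or SHR 3, 40 or 41 (adjusted p from 0.0537 to 0.0771).

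The other 16 mates of MERGE.16145 were below the filter. MERGE.16145.33 and MERGE.16145.49 were at 0 in all WKY and above 0 in all SHR libraries, as was MERGE.16145.43. MERGE.16145.21 and MERGE.16145.78 were at 0 in all WKY and in some SHR libraries. MERGE.16145.32, MERGE.16145.35, MERGE.16145.36, MERGE.16145.37, MERGE.16145.5, MERGE.16145.58, MERGE.16145.63 and MERGE.16145.64 were at most 0.321 in WKY. Their highest SHR values ran from 1.27 for MERGE.16145.37 to 22.0 for MERGE.16145.32. In the other direction, MERGE.16145.17 and MERGE.16145.22 were at 0 in all SHR and in 2 WKY libraries, with highest values of 12.7 and 32.4. MERGE.16145.47 reached 24.1 in WKY against 0.375 in SHR, and its lowest WKY value of 0.0783 in WKY 5 fell inside the SHR range. MERGE.16145.39 had a WKY median of 0.672 and was at 0 in 4 SHR libraries, but at 2.27 in SHR 60.

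**Figure D4:**
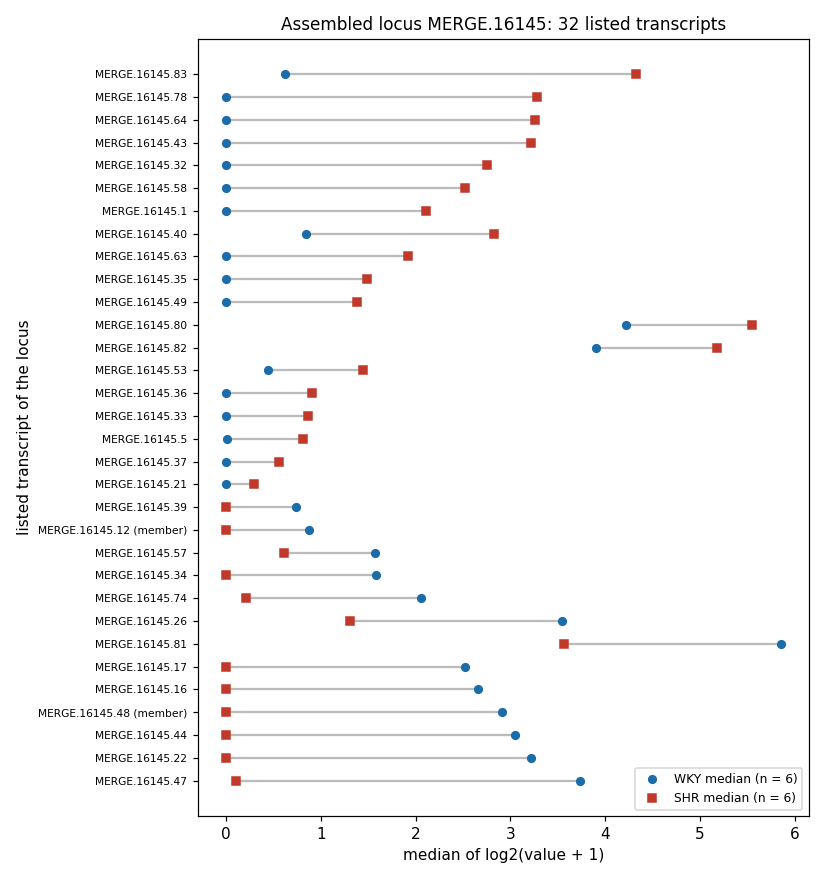
Median value over 6 WKY libraries (circles) and 6 SHR libraries (squares), drawn as log2(median + 1), for the 32 listed transcripts of MERGE.16145. Points are joined per transcript and ordered by the difference. The SHR median is higher in 19 mates and lower in 11 mates, and both members are at 0 in SHR.

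MERGE.15180 held 2 members of differing steadiness. MERGE.15180.9 stood at 0.795, 1.23 and 2.34 in WKY, whereas MERGE.15180.19 had a median of 0.200 and reached 4.75 in WKY 2. None of its 11 mates passed the filter. Of these, 8 were at 0 in all WKY libraries and 2 were at 0 in 5 and at most 0.00334 in the sixth, while all 10 reached 0.932 to 2.56 in SHR. The remaining mate, MERGE.15180.31, was at 0 in all SHR libraries and in WKY 2, and reached 6.03 in WKY 5. No SHR library lacked all of the mates: they summed to between 4.35 and 8.21 in SHR and to between 0 and 6.03 in WKY. Over all 68 mates 15 (22.1%) were at 0 in all WKY libraries and 5 (7.35%) in all SHR libraries, against 8.14% and 4.54% of the whole list. Mates of a locus are not independent, and 8 of the 15 belong to MERGE.15180 and 5 to MERGE.16145. Mates could not meet the rule, while the 4.54% includes the 66 transcripts that did. The share of mates at 0 in SHR was thus lowered by definition, and the shares were not tested.

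Treatment with ETH could be read in 2 of the 58 members (3.45%), since the SHR+ETH tables listed 1635 transcripts, of which 420 (11.48% of the 3659) were also listed for WKY and SHR. Of the other 56 members no SHR+ETH value was used here. MERGE.3525.2 was at 0 in SHR+ETH 1, 58 and 64 and at 20.5, 16.4 and 36.0 in SHR+ETH 2, 54 and 65. The treated animals thus fell into 3 at 0, like the untreated SHR, and 3 inside the WKY range of 4.18 to 57.9. MERGE.2063.4 was at 0 in SHR+ETH 1, 2 and 58 and at 0.505, 3.76 and 0.296 in SHR+ETH 54, 64 and 65. SHR+ETH 1 and 58 were at 0 in both members, SHR+ETH 54 and 65 above 0 in both. The number of members above 0 in all 6 treated animals was 0.

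No test was made for these 2 members, because their SHR values were fixed at 0 by the choice. The SHR+ETH table may also have been listed for differences from the same SHR libraries. Means were 12.2 ± 14.8 in SHR+ETH and 30.2 ± 22.4 in WKY for MERGE.3525.2, and 0.761 ± 1.49 and 6.26 ± 3.87 for MERGE.2063.4 (SD, n = 6 each).

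**Figure D5:**
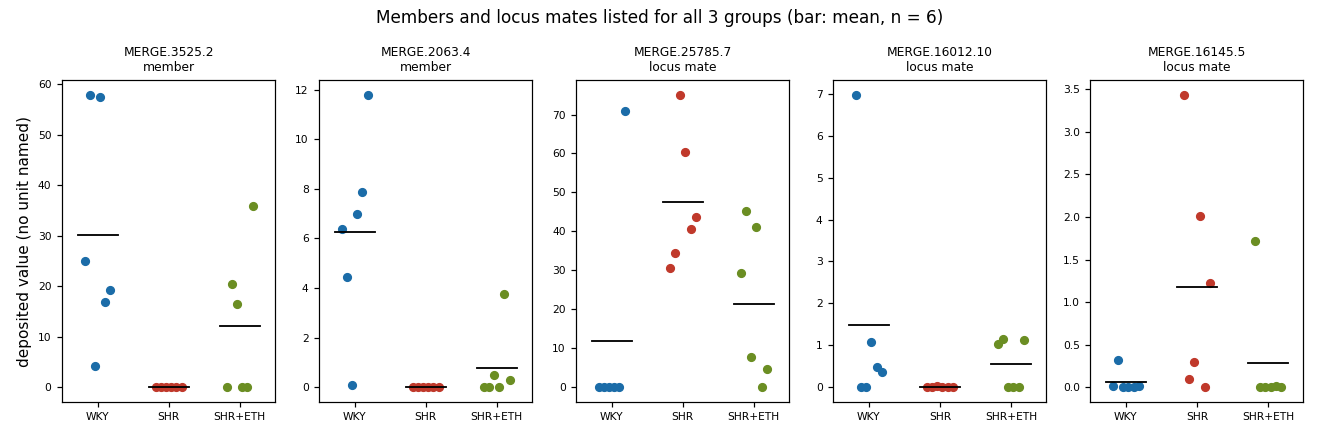
Deposited values per library in WKY, SHR and SHR+ETH (6 points each, bar for the mean) for the 2 members and 3 locus mates listed for all 3 groups. In both members 3 of the 6 treated animals are at 0 and 3 are above 0.

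Among the locus mates 3 were listed for all groups. The limma comparison of SHR+ETH with SHR covered 199 of the 420 shared transcripts, of which 33.7% were called (8.54% as higher and 25.1% as lower in SHR+ETH), and 1 of the 3 mates. MERGE.25785.7 held 0 in SHR+ETH 64, 4.75 in SHR+ETH 65 and 7.65 in SHR+ETH 54, and 29.3 to 45.3 in the other 3. In untreated SHR it held 30.6 to 75.1, so the groups overlapped. The difference missed the threshold (log2 fold change -1.95, SE 0.82, adjusted p = 0.0564, unadjusted p = 0.0284), so limma called 0 mates and 1 had an unadjusted p under 0.05. It passed without SHR+ETH 2 (adjusted p = 0.0431) or without SHR+ETH 58 (adjusted p = 0.0410), and under no other alternative. The limma adjusted p was 0.187 under quantile normalization, 0.109 with equal listed sums and 0.120 without SHR+ETH 64. MERGE.16012.10 was above 0 in 4 treated animals, at 1.03, 1.14 and 1.13 in SHR+ETH 1, 2 and 65 and 0.00596 in SHR+ETH 64, compared with at most 0.0307 in SHR and up to 6.97 in WKY. MERGE.16145.5 stood at 1.72 in SHR+ETH 1, 0.0120 in SHR+ETH 64 and 0 in the other 4. Both were too low to be tested.

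The SHR+ETH tables also listed 2 transcripts of member loci that the WKY and SHR tables did not. MERGE.15180.20 was above 0 in all 6 treated animals, at 0.257 to 0.865. MERGE.16717.4 was at 0 in SHR+ETH 1, 2 and 58 and at 3.77, 2.57 and 5.99 in SHR+ETH 54, 64 and 65. The same 3 animals were at 0 in MERGE.16717.4 as in MERGE.2063.4.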

How the data were processed

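The authors deposited 1 table per library, with a signal value of 0 or more for each transcript and no unit named. Their processing notes mention limma. For the aligner, quantification program, genome build and filters, no statement was found (not given in the sources used here). Steps of 1 read were looked for among the low values (tolerance 0.1, first 20 steps). At most 28.8% of the low values fitted a step, so reads were not recovered and depth is unknown. Empty rows of the SHR+ETH tables were dropped. No 2 libraries were identical.

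Members were chosen by the rule given at the start. The members, lists and tests were chosen with earlier results of these data known. Differences between SHR and WKY, and between SHR+ETH and SHR, were modelled in R 4.3.3 using limma 3.58.1 (lmFit, eBayes with trend, two-sided, Benjamini-Hochberg over all tested transcripts of the table) on log2(value + 1), requiring a value of at least 1 in 6 of 12 libraries. Folds on this scale understate changes of low transcripts. On simulated data limma recovered 47.8%, 82.1% and 97.0% of changes of 1, 2 and 3 (log2) for SHR against WKY (1585 transcripts), and 3 calls were false. In the comparison of SHR+ETH with SHR (199 transcripts) these were 50.0%, 86.4% and 95.5%, and 3 calls were false. The simulation drew normally distributed log2 values around 1 mean per transcript and changed a minority of transcripts. In the deposited values many are 0 and most tested transcripts were called between strains. The simulated shares therefore need not hold for the calls reported here.

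Named were the Ensembl members, the 12 assembled members with the highest WKY medians, the 5 with the lowest WKY minimum, members in the SHR+ETH tables, loci with 2 or more members, 3 transcripts on either side of the rule, the 10 called mates with the largest change in each direction, and mates of those 12 members. Other members and mates named were chosen after their values were seen. Marker and pathway lists had been prepared by gene symbol and gave no value, as no identifier matched the gene table. Sequences were not used here for the same reason. Alternatives were another pseudocount, filter or scaling, other limits for 0 and for presence, and leaving out each library. Summaries used Python 3.11.15, numpy 2.4.6 and pandas 2.3.3.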

Additional observations from a re-analysis of the deposited data

Results flagged for a closer look

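Of 115 groups of 6 values examined for named members and mates, 33 had 1 extreme library separated by a wide gap (Dixon's test). By chance about 1 group in 20 would be picked out if values were normally distributed. These were skewed, with many at 0, so the number is not read as an excess. The members and sets concerned follow with the library's value and the range of the other 5.

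Among the members, MERGE.16145.12 reached 40.04 in WKY 4 (others 0.129 to 2.35) and MERGE.16012.5 26.0 in WKY 1 (0.390 to 9.83). MERGE.15180.19 reached 4.75 in WKY 2 (0.00657 to 1.01) and MERGE.13895.6 3.05 in WKY 4 (0.00591 to 0.930). In SHR+ETH, MERGE.2063.4 reached 3.76 in SHR+ETH 64 (0 to 0.505).

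Among mates outside MERGE.16145, MERGE.25785.7 held 70.8 in WKY 6 with the others at 0. MERGE.16012.10 held 6.97 in WKY 1 (0.00289 to 1.08) and 0.0307 in SHR 41 (0 to 0.00782), and MERGE.16012.1 was low in SHR 59 at 6.32 (9.86 to 11.4). MERGE.17607.1 held 5.77 in SHR 40 (0.147 to 0.486) and 0.00613 in WKY 2 with the others at 0. MERGE.3536.1 held 0.317 in WKY 4 (0 to 0.0804). MERGE.22919.1 at 0.0217 in SHR 48 and MERGE.3525.3 at 0.790 in SHR 60 were the only SHR values above 0. MERGE.4306.3 was at 0 in SHR 40 (0.00242 to 0.00298).

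In MERGE.16145 the WKY libraries set apart were WKY 1 for MERGE.16145.58 (0.0852, others 0 to 0.00790) and MERGE.16145.63 (0.111, others 0 to 0.0232), and WKY 2 for MERGE.16145.5 (0.321, others 0 to 0.0114) and MERGE.16145.53 (4.003, others 0.0272 to 0.446). WKY 3 was low for MERGE.16145.16 (2.72, others 5.04 to 6.26) and high for MERGE.16145.35 (0.300, others 0 to 0.0726). WKY 4 held 3.06 for MERGE.16145.1, WKY 5 0.0159 for MERGE.16145.36 and WKY 6 0.00277 for MERGE.16145.37, each with the others at 0. WKY 6 also held 5.26 for MERGE.16145.34 (1.61 to 2.21). The SHR libraries were SHR 40 for MERGE.16145.21 (8.15, others 0 to 0.656), SHR 41 for MERGE.16145.16 (1.23, others 0 to 0.169), SHR 59 for MERGE.16145.44 (3.41, others 0) and SHR 59 for MERGE.16145.49 (6.61, others 0.789 to 2.68). SHR 60 was high for MERGE.16145.39 (2.27, others 0 to 0.514) and MERGE.16145.47 (0.375, others 0.0123 to 0.124) and low for MERGE.16145.35 (0.197, others 1.54 to 2.27). SHR+ETH 1 held 1.72 for MERGE.16145.5 (0 to 0.0120).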

How the results depend on the processing

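The number of members was 58 by the rule. It was 96 when values under 0.1 counted as 0, 100 when 5 of 6 SHR libraries had to be at 0, and 20 when presence asked for a value of at least 1. Leaving out each library gave 59 to 68. Of the mates, 62 of 68 were called without the filter on low values (37 higher in SHR and 25 lower) and all 11 that were left with a minimum of 5 (4 higher and 7 lower). The number called follows the number tested, which the filter sets. Leaving out each library gave 20 to 24 calls, 8 to 13 of them higher and 9 to 15 lower. The lowest counts were 8 higher without SHR 3 or SHR 41 and 9 lower without WKY 3. Each such fit tested 23 to 25 mates, since 6 of 11 libraries had to pass the filter. Under the other alternatives run (pseudocount of 0.1, quantile normalization, scaling to equal listed sums) 25 to 27 were called. For 24 of the tested mates the alternatives were followed singly. None changed direction where it was still tested, and 3 of 24 lost the call under at least 1. Fits in which a mate fell below the filter, as MERGE.16145.1 did without WKY 4, are not counted as lost calls. MERGE.16717.1, MERGE.28313.3, MERGE.22919.3 and MERGE.16450.4 were not followed singly. With a pseudocount of 0.1, 14 mates were called lower, against 15 in the main fit. For SHR+ETH against SHR the number of called mates was 0 to 1 when each library was left out. MERGE.25785.7 passed without SHR+ETH 2 (adjusted p = 0.0431) or SHR+ETH 58 (adjusted p = 0.0410). It was further from the threshold under quantile normalization (limma adjusted p = 0.187) and with equal listed sums (0.109). The mean sum of the members moved by less than 1 SD with equal listed sums (283) and without MERGE.25785.6 (252). No paired analysis was possible because the WKY and SHR labels share fewer than 2 numbers, SHR and SHR+ETH share none, and SHR+ETH was not tested against WKY. Depth is unknown, so no limit can be given for a value listed at 0.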
